A study of Drosophila melanogaster with 4 samples.

Results

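Short gaps between neighbouring genes held 513 of the 7157 summits that targeted DamID gave for the histone methyltransferase Pr-set7 in larval neural stem cells of Drosophila melanogaster. A summit is the position of highest coverage in a called peak, and its height is the number of fragments piled up there. Short-gap summits were those on 2L, 2R, 3L, 3R, 4 or X that lay outside the span of every protein-coding gene, in a gap of at most 1000 bp between adjacent spans of the dm6 assembly. Replicate 1 had 232 of them among 2876 summits and replicate 2 had 281 among 4281. No gap held more than 1 summit of a replicate.

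The samples were 2 with UAS-Dam-Pr-set7 (construct pUASTattB-LT3-NDam-Pr-set7) and 2 with UAS-Dam, all driven by grh-Gal4, the driver that the study describes as specific to neural stem cells. Eggs were laid within 6 h and kept at 25 °C, and larvae were dissected after 24 h at 29 °C. The study ran 2 batches, each with 1 sample of either kind. Each replicate here is therefore also its own batch, and batch and replicate cannot be told apart. None of the values below was set here against Dam on its own, whose libraries were not analysed. Whether Dam alone was the control when the peaks were called is not given in the sources used. Dam methylates accessible DNA, and what part that had in these summits was not tested. Summits report positions and no expression, and the labelled cell type could not be checked against its marker genes.

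Pr-set7, also called SETD8 and encoded by Set8 in flies, places a single methyl group on lysine 20 of histone H4 and is needed for normal passage through the cell cycle. Fused to the bacterial methylase Dam it marks GATC motifs near the sites it visits. Fly genes are closely packed, so many gaps between them hold little more than the start regions, where promoters lie, or the 3' ends of the genes on either side. Gaps between genes that point away from each other hold both promoters, and in flies such gaps are known as frequent places of insulator proteins and housekeeping promoters. Gene strand was not used here, so gaps are not divided into divergent, tandem and convergent ones.

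Read depth is unknown, and heights were compared within a list or as percentiles of it. The exception is pairs of summits from both replicates, whose heights were set side by side without scaling to depth. The full lists had median heights of 42 fragments (range 12 to 279) in replicate 1 and 37 fragments (range 11 to 204) in replicate 2. With 2 samples of 1 group no test between conditions was possible. Shares carry exact Clopper-Pearson 95% intervals, which cover counting error only, since summits of a library are not independent samples. Where a count is 0, the limit printed is instead the share that 3 counts would make, which is lower than the upper bound of the exact interval.

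Short gaps were numerous but small. The 13922 protein-coding genes left 10425 gaps between them, of which 6834 (65.6%) were at most 1000 bp long, with a median length of 260 bp. Together they made up 1.63% of the arms. They held 8.12% of the replicate 1 summits on the arms (232 of 2856, interval 7.15 to 9.19%) and 6.63% of those of replicate 2 (281 of 4240, interval 5.90 to 7.42%), which is 4.99 and 4.07 times their share of the bases. Summits inside genes stood at 1.03 times their share of the bases in either replicate, and summits in longer gaps at 0.73 and 0.79 times. No base of a short gap is more than 500 bp from a gene, so places within 500 bp of a gene end were set beside them. This caps the distance to a gene but does not match it, as most short gaps are much shorter than the limit. Per 100 kb, short gaps held 10.7 and 13.0 summits in replicates 1 and 2. The bases inside genes within 500 bp of an end held 5.37 and 6.81, and the bases of longer gaps within 500 bp of a gene held 3.87 and 4.90. The order of these 3 places was the same in both replicates. As the positions chose the members, these densities describe the choice and were not tested.

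Above 300 bp, density was lower the longer the gap. Gaps of 201 to 300 bp held 17.0 summits per 100 kb in replicate 1 and 22.5 in replicate 2, gaps of 401 to 600 bp held 10.5 and 12, and gaps of 801 to 1000 bp held 3.94 and 5.62. The next class, 1001 to 2000 bp, was at 4.14 and 5.86, so values on either side of the limit of 1000 bp were alike. In the shortest class, up to 100 bp, the replicates parted, with 23.6 per 100 kb in replicate 1 and 12.5 in replicate 2, on 17 and 9 summits. Counted per gap and not per base, the order was different. A summit of replicate 1 lay in 1.22% of gaps up to 100 bp, 4.28% of those of 201 to 300 bp and 3.51% of those of 801 to 1000 bp, and the values for replicate 2 were 0.65%, 5.66% and 5.01%. Above 200 bp the intervals of all classes overlapped within each replicate.

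**Figure D1:**
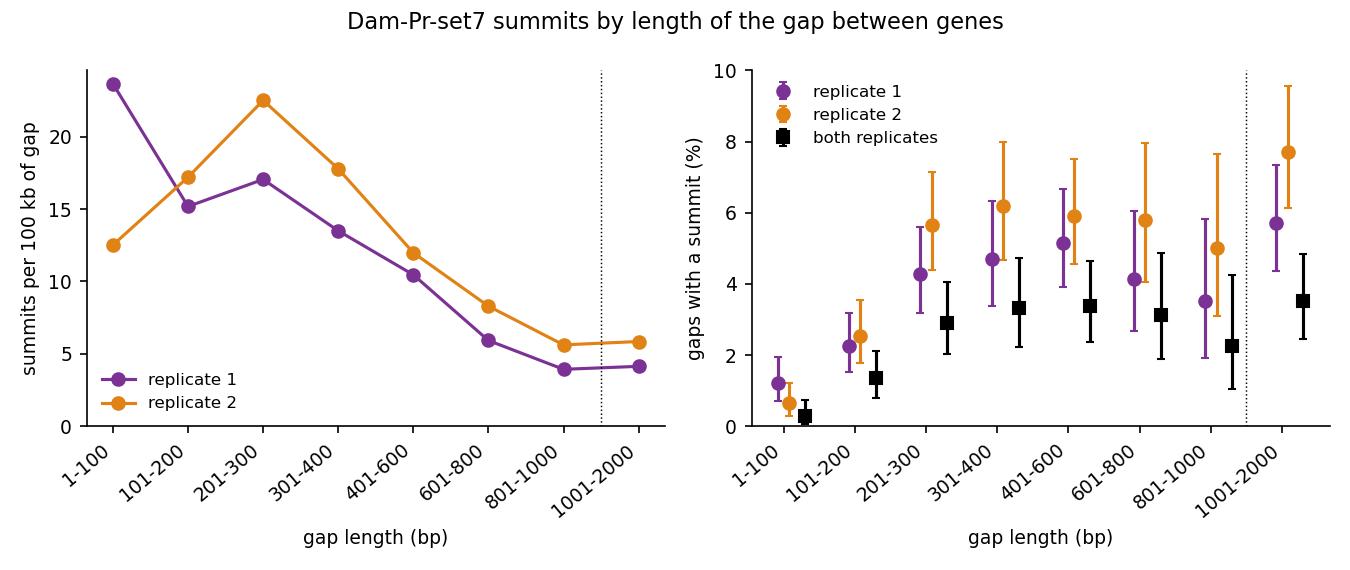
Left, summits per 100 kb of gap sequence against gap length in bp, and right, the percentage of gaps with a summit in replicate 1, replicate 2 or both, with exact 95% intervals and a dotted line at 1000 bp. Density is 17.0 and 22.5 per 100 kb in gaps of 201 to 300 bp and 3.94 and 5.62 in gaps of 801 to 1000 bp, while the share of gaps with a summit is lowest in the shortest gaps.

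A summit in both replicates was found in 149 of the 6834 short gaps (2.18%). On their own the replicates reached 232 gaps (3.39%) and 281 gaps (4.11%), and 364 gaps (5.33%) had a summit in either. The 149 gaps are 64.2% of the gaps reached in replicate 1 and 53% of those reached in replicate 2. Their median length was 345 bp (quartiles 242 and 539 bp), against 255 bp (118 and 454 bp) for the 6470 short gaps without any summit. Bordering genes had a median length of 2382 bp at the 149 gaps and 2255 bp at gaps without a summit, and 7 against 6 coding genes lay, as medians, within 10000 bp on either side of the gap. The quartiles of both quantities overlapped widely. In only 1 case were neighbouring gaps of the 149 both reached, on either side of ssh, which encodes the actin regulator slingshot. The gap between Osbp and ssh had 58 and 46 fragments and the gap between ssh and Nmnat had 21 and 20 fragments in replicates 1 and 2.

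The summits of the replicates nearly coincided in these gaps. Their median distance was 19 bp (quartiles 9 and 34 bp), 128 of the 149 pairs lay within 50 bp, and 2 pairs fell on the same base. Both summits were nearer to the same gene in 131 gaps. Pairs of summits inside genes (1350 pairs, median distance 21 bp) and in longer gaps (415 pairs, 23 bp) lay about as close. GATC motifs were not located here, so what part their positions had in this closeness and in distances to genes was not tested. In 3 short gaps the summits were more than 200 bp apart. Between BORCS5, a gene of lysosome positioning, and CG15739 on X, the summit of replicate 1 lay 31 bp from BORCS5 and that of replicate 2 lay 60 bp from CG15739, 449 bp away, with 162 and 171 fragments. The gap between CG14408 and CG14411 had summits 469 bp apart with 24 and 32 fragments, and that between CG6770 and Plzf had summits 243 bp apart with 19 and 31 fragments. These 3 gaps were named after their values were seen.

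Over all short gaps together, summits lay about evenly from one gene to the other. When every gap was divided into 3 equal stretches, the middle one held 34.1% of the summits of replicate 1 (79 of 232, interval 28.0 to 40.5%) and 34.5% of those of replicate 2 (97 of 281, interval 29.0 to 40.4%), where an even spread gives 33.3%. In gaps under 300 bp the middle stretch held 39.2% and 40.4% in replicates 1 and 2. In gaps of 300 bp or more it held 30.4% and 30.8%. The intervals of all these shares include 33.3%. As strand was not used, the starts and 3' ends of genes are mixed in these values. The nearer gene was a median of 79 bp away in replicate 1 (quartiles 31.8 and 136 bp) and 87 bp away in replicate 2 (42 and 139 bp). Median heights by this distance stayed between 46 and 65 fragments. Summits within 50 bp of a gene had medians of 53 fragments in replicate 1 and 47.5 in replicate 2, those at 101 to 200 bp had 64 and 58, and those beyond 200 bp had 50.5 and 46.

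**Figure D2:**
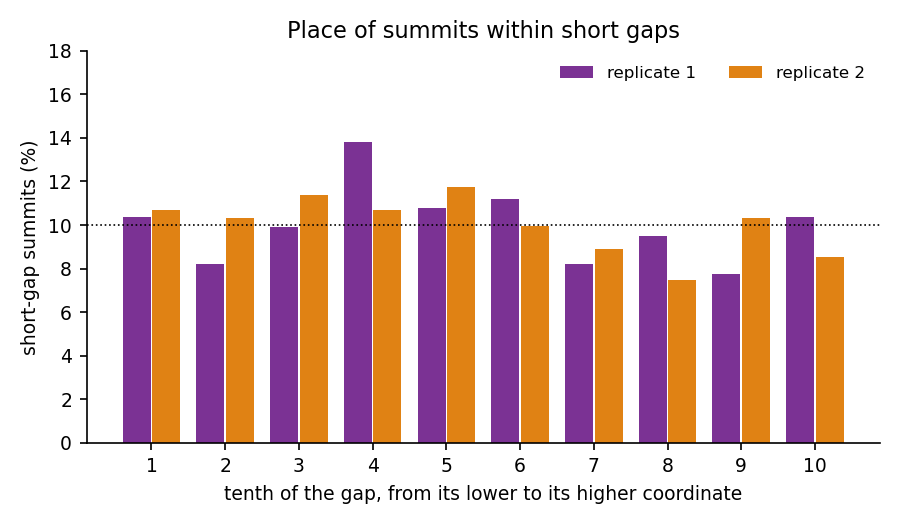
Percentage of short-gap summits (232 in replicate 1, 281 in replicate 2) in each of 10 equal bins from the lower to the higher coordinate of the gap, with a dotted line at the 10% of an even spread. All bins lie between 7.47% and 13.8%, with no bin set apart in both replicates.

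Short-gap summits were among the higher ones of their lists. Their median height was 58 fragments in replicate 1 (quartiles 32 and 100), against 43 inside genes (26 and 73) and 37 in longer gaps (25 and 61). In replicate 2 it was 53 fragments (31 and 93), against 38 inside genes (24 and 66) and 30 in longer gaps (20 and 52). The medians thus stood in the same order in both replicates, while the quartiles overlapped widely. Of the short-gap summits, 20.7% in replicate 1 and 18.9% in replicate 2 were in the highest 10% of the list, against 10.1% and 10.8% of summits inside genes and 5.60% and 5.11% of those in longer gaps. Near gene ends the difference was smaller. Summits inside genes within 500 bp of an end had medians of 51 and 48 fragments, and the ratio of short-gap to gene-internal medians was then 1.14 and 1.10, against 1.35 and 1.39 with all gene-internal summits. Against longer gaps within 500 bp of a gene, where medians were 46 and 37.5 fragments, the ratio was 1.26 and 1.41.

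**Figure D3:**
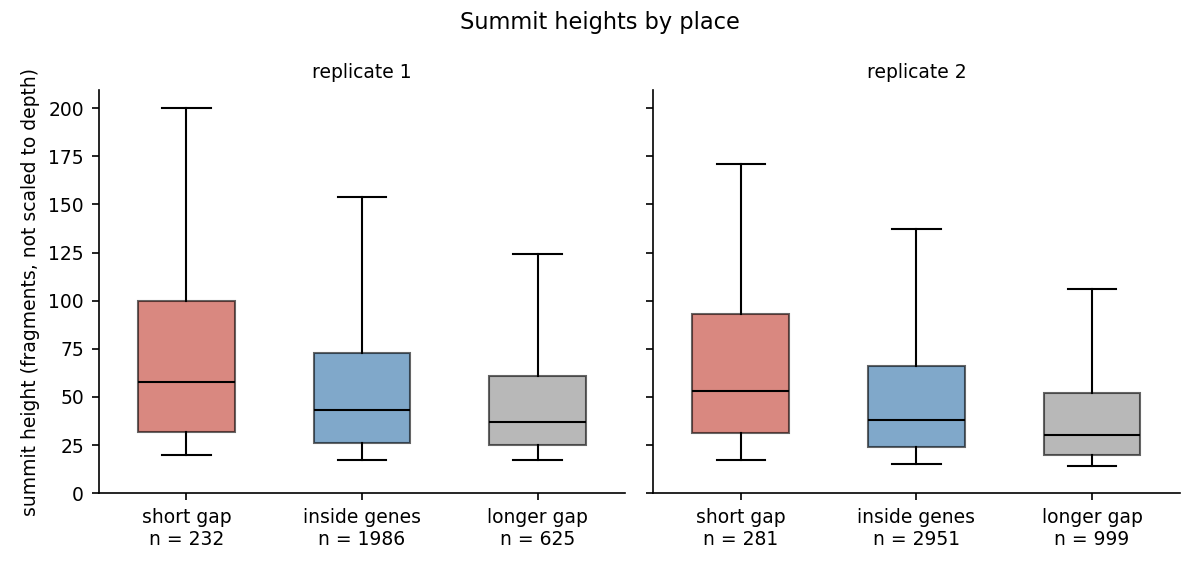
Summit heights in fragments, not scaled to depth, in short gaps, inside genes and in longer gaps, for each replicate, as boxes from quartile to quartile with a line at the median and whiskers to the 5th and 95th percentiles. Short-gap medians of 58 and 53 fragments are above those inside genes (43 and 38) and in longer gaps (37 and 30), with overlapping boxes.

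A summit of the other replicate lay within 500 bp of 76.7% of the short-gap summits of replicate 1 (178 of 232, interval 70.7 to 82.0%), against 68.9% of those inside genes (interval 66.8 to 70.9%) and 67.5% of those in longer gaps (interval 63.7 to 71.2%). For replicate 2 the share was 58.4% (164 of 281, interval 52.4 to 64.2%), against 47.0% (45.2 to 48.8%) and 41.8% (38.8 to 45%). In all 3 places the highest of 5 classes by height was paired more often than the lowest. In the lowest class, 14.3% of short-gap summits of replicate 2 (4 of 28, interval 4.03 to 32.7%) were paired. Inside genes it was 13.9% and in longer gaps 12%. In the highest class of replicate 2 it was 85.3%, against 79.9% and 82.7%. The classes of replicate 1 differed less. Short-gap summits, those inside genes and those in longer gaps were paired in 60.7%, 56.7% and 59.9% of cases in the lowest class. In its highest class it was 84.6%, 83.5% and 80.7%. When the other places were weighted to the heights of short-gap summits, their shares came to 72.0% and 72.0% in replicate 1 and to 55.1% inside genes and 57.5% in longer gaps in replicate 2. All 4 values lie within the intervals of the short-gap shares. Likewise, summits inside genes within 500 bp of an end were paired in 72.8% and 58.7% of cases, for replicate 2 no less often than short-gap summits.

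**Figure D4:**
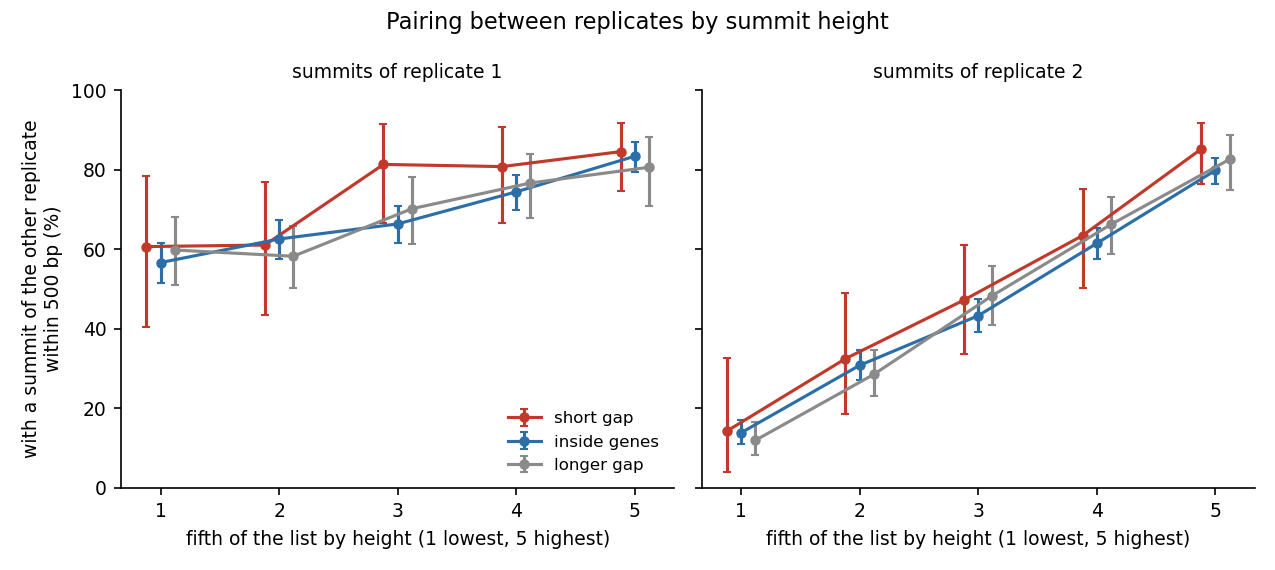
Percentage of summits with a summit of the other replicate within 500 bp, by class of height within the list, with exact 95% intervals, for summits in short gaps, inside genes and in longer gaps. The share is higher in the highest class than in the lowest, for short-gap summits 85.3% against 14.3% in replicate 2 and 84.6% against 60.7% in replicate 1. Within each height class the intervals of the 3 places overlap.

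Heights went together between replicates in the 149 gaps. Across these gaps, which share the same libraries, Pearson's r of the log2 heights was 0.90 and Spearman's rho was 0.91. Pairs inside genes gave 0.88 and 0.89, and pairs in longer gaps gave 0.86 and 0.87. Summits of the 149 gaps had median heights of 69 fragments in replicate 1 (quartiles 41 and 118) and 72 in replicate 2 (46 and 116). Replicate 2 was higher in 89 gaps and replicate 1 in 60, with a median ratio of replicate 2 to replicate 1 of 1.06 (quartiles 0.89 and 1.33) that contains the unknown difference in depth. The 2 highest ratios, named after their values were seen, were those of the gaps between pr and neb (13 and 36 fragments in replicates 1 and 2, a ratio of 2.77) and AP-1mu and MBD-like (22 and 53, 2.41). The 2 lowest were those of the gaps between CG6686 and CG34163 (69 and 35, 0.51) and sip1 and CG11030 (111 and 58, 0.52). Of the 149 gaps, 34 were in the highest 10% of both lists.

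**Figure D5:**
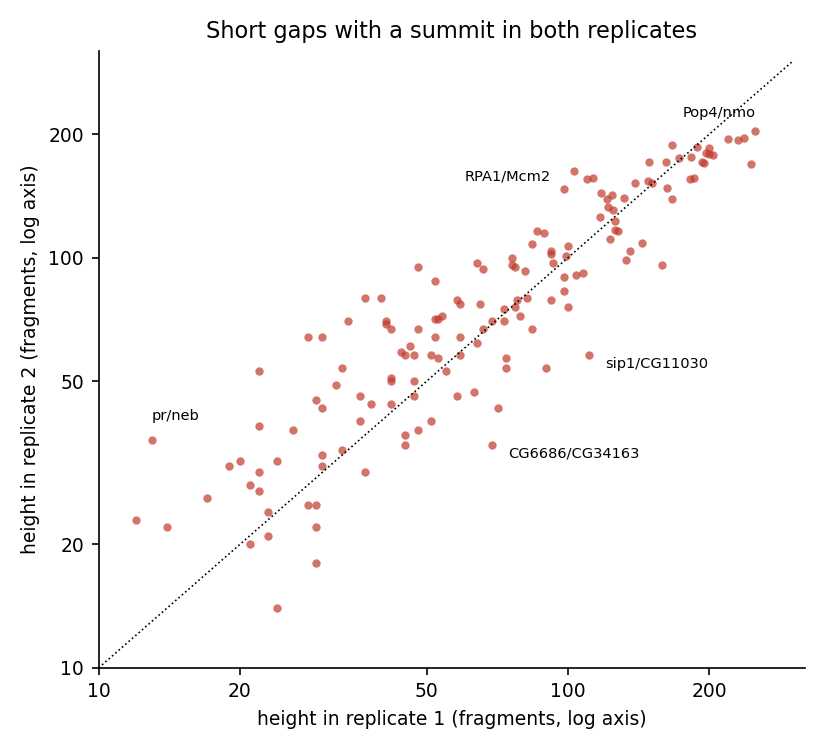
Height in replicate 2 against height in replicate 1, in fragments on log axes, for the 149 short gaps with a summit in both, each a point, some labelled by their genes, with a dotted line at equal heights. Points follow the line (Spearman's rho 0.91), with pr/neb farthest above it and CG6686/CG34163 farthest below.

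Gaps were ranked by the mean of the height percentiles in the replicates. The highest pair lay between Pop4, which encodes a subunit of RNase P, and nmo, which encodes the Nemo kinase (3L:7978651-7979045). Its summits were 17 bp apart near the centre of a gap of 395 bp, with 251 fragments in replicate 1 and 204 in replicate 2, the maximum of that list. Next came the gap of 248 bp between IKKbeta, a kinase gene of the immune response, and CG5013, where the summits with 237 and 196 fragments were 12 and 14 bp from CG5013. Between Fdh, the formaldehyde dehydrogenase gene, and CG4596 they had 231 and 194 fragments, 44 and 62 bp from CG4596. The gap between MTPAP, which encodes a mitochondrial poly(A) polymerase, and CG12773 on X had 220 and 195 fragments. That between the glycerol-3-phosphate dehydrogenase gene Gpdh1 and CG9044 had 246 and 169 fragments. These leading gaps thus differed in where the summit sat, from the centre to within 20 bp of one gene.

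CTCF, which encodes an insulator protein, shares a gap of 561 bp with pst (3L:7356714-7357274). Its summits, 14 and 8 bp from CTCF, had 200 and 185 fragments. Sf3a2, a splicing factor gene, had 200 and 179 fragments in the gap it shares with CG42588, and sbr, the mRNA export receptor gene, had 163 and 148 in the gap it shares with Pgls. Among genes of mitochondria, mRpS10 (195 and 170 fragments, shared with the arginine methyltransferase gene Art3), CIA30 (193 and 171, shared with CG7601) and ND-B8 (182 and 156, shared with Secp43) bordered gaps of 172 to 256 bp. The CIA30 summits of the replicates fell on the same base. The gap shared by Usp14, encoding a deubiquitinase of the proteasome, and CG4972 had 204 and 178 fragments. These summits lay nearer to CG4972 (8 and 23 bp) than to Usp14 (388 and 373 bp). Tbcd, encoding a tubulin folding cofactor, had 197 and 180 fragments in the gap shared with CG11723. The gap between the RNA-binding protein gene lin-28 and the Rac activator gene sif had 167 and 139 fragments at its centre, 253 and 246 bp from lin-28.

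High summits also occurred in very short gaps. Between CG15386 and CG42371 on one side and mio, a gene of amino acid signalling to TOR, on the other, a gap of only 43 bp held summits of 186 and 157 fragments. The gap of 67 bp between ms(3)K81, which protects the telomeres of paternal chromosomes, and CG5500 held 148 and 154 fragments. That of 122 bp between CG8136 and nom held 189 and 186, and that of 160 bp between dgt1, a gene of the augmin complex of the spindle, and CG7824 held 151 and 152. In gaps of this size a summit is close to both genes, and which of them it belongs to cannot be said from its position. The first 24 gaps also included those between cm and the pair sloth1 and sloth2 (173 and 175), ttm2 and RhoGEF3 (149 and 171), and mRpS17 and Nop60B (139 and 152).

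Cell cycle genes bordered 5 of these gaps. Of the 55 genes listed, 49 border a short gap, and 5 of the 49 (10.2%, interval 3.40 to 22.2%) had a summit in both replicates, against 303 of all 9748 genes that border a short gap (3.11%). The intervals are wide, and since earlier results of these data were known when the list was made, the share is a description only. Subunits of the replication machinery led. The gap of 235 bp between CG1620 and dpa, which encodes the Mcm4 subunit of the helicase, had 183 and 176 fragments, 109 and 134 bp from dpa. The gap of 119 bp between Vps53 and Psf2, a GINS subunit gene, had 167 and 188 fragments, 18 and 42 bp from Psf2. Mcm2 shares its gap of 518 bp with the replication protein A gene RPA1, and its summits of 98 and 147 fragments lay nearer to RPA1 (154 and 190 bp) than to Mcm2 (365 and 329 bp).

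The mitotic genes among the 5 were aurA and CycA. The gap between CG3281 and aurA, the Aurora A kinase gene, had 108 and 92 fragments close to its centre. At CycA, the cyclin A gene, the gap of 986 bp shared with CG32095 held 32 and 49 fragments, 569 and 539 bp from CycA. The mean height percentile of the replicates had a median of 90.6 over these 5 gaps, against 73.7 over all 149. It ran from 50.2 at CycA to 97.8 at dpa. Lists with 3 such gaps had medians of 95.1 (mitochondrial ribosomal protein), 92.8 (translation factor and tRNA synthetase), 84.3 (complex I and vacuolar ATPase) and 72.5 (DNA damage). High medians were thus not particular to cell cycle genes. A summit in replicate 2 alone was found beside 6 further genes of the cell cycle list. They included the Cdc25 phosphatase gene twe (121 fragments), Myt1, whose kinase inhibits Cdk1 (60), the origin recognition genes Orc3 (51) and Orc5 (24), and the Aurora B kinase gene aurB (29). For aurB the nearest summit of replicate 1 was 506 bp away inside aurB with 39 fragments. For twe, Myt1, Orc3 and Orc5 it was 7130, 17394, 13035 and 2830 bp away. For Cdk1, the mitotic kinase gene, the summit of replicate 2 (73 fragments) lay in the gap of 399 bp shared with mRpS7, 181 bp from Cdk1 and 219 bp from mRpS7, and the nearest one of replicate 1 was 639 bp away inside Cdk1 with 42 fragments. The gap on the other side of mRpS7, towards the transcription factor gene da, also had a summit in replicate 2 alone (38 fragments). With a summit in either replicate, 11 of the 49 genes (22.4%) were reached, against 731 of all 9748 (7.50%).

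DNA damage genes bordered 3 such gaps, of 33 genes of the list at short gaps (9.09%, interval 1.92 to 24.3%), against 3.11% of all genes at short gaps, a value inside that interval. The gap between rad50, a gene of the Mre11 repair complex, and the mitochondrial ribosomal protein gene mRpS29 had 74 and 57 fragments, nearer to mRpS29 (177 and 150 bp) than to rad50 (460 and 487 bp). Xpac, a nucleotide excision repair gene, had 52 and 88 fragments in the gap of 144 bp shared with brn. These summits lay nearer to brn (32 and 6 bp) than to Xpac (113 and 139 bp). The checkpoint gene Rad9 had 33 and 34 fragments in the gap of 193 bp shared with Uggt. Those summits lay nearer to Uggt (29 and 62 bp) than to Rad9 (165 and 132 bp). At Brca2 the summit of replicate 1 (52 fragments) lay in the gap shared with CG4612, and that of replicate 2 (76 fragments) was 36 bp away, inside CG4612.

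Genes of the Wnt list bordered 2 of the 149 gaps, of 34 at short gaps (5.88%, interval 0.72 to 19.7%), against 3.11% of all genes at short gaps. That value also lies inside the intervals of the quiescence and chromatin lists. The 2 listed genes were nmo and lic. The latter is a MAP kinase kinase gene that shares its gap of 710 bp with the kinase gene hep (51 and 40 fragments). Its place in the Wnt list was not checked. Among genes of quiescence and reactivation it was 1 of 28, nab, encoding a transcriptional cofactor, with 82 and 80 fragments in the gap shared with mas. Chromatin genes had 0 of 33, which allows a share of up to 9.09%. Replicate 2 alone had short-gap summits beside 3 of them. These were Set8, which encodes Pr-set7 itself (39 fragments, 271 bp from Set8 and 51 bp from Crz), l(3)mbt, encoding a reader of histone methylation (143 fragments), and mof, the H4 acetyltransferase gene (34 fragments). The nearest summit of replicate 1 lay 536 bp away inside l(3)mbt with 171 fragments and 813 bp away inside mof with 47. For the summit beside Set8 it was 17749 bp away. These samples carry a Pr-set7 transgene beside the gene itself. No short gap beside ebd1, arm, InR, E2f1, CycE or grh held a summit in either replicate. Which of these genes border a short gap is not given here. Of all genes at short gaps only 7.50% had a summit in either replicate, so nothing is read from this absence.

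Genes of protein synthesis and respiration mostly border short gaps, and the intervals of their shares include the 3.11% of all genes there. Mitochondrial ribosomal protein genes had 3 of 70 (4.29%, interval 0.89 to 12%), complex I and vacuolar ATPase genes 3 of 59 (5.08%, interval 1.06 to 14.1%), and translation factor and tRNA synthetase genes 3 of 78 (3.85%, interval 0.80 to 10.8%). Beyond mRpS10, mRpS17 and ND-B8 they included the proton pump genes Vha16-1 (98 and 83 fragments) and Vha14-1 (77 and 76) and the translation initiation factor genes eIF3k (124 and 142) and eIF3l (122 and 133). The Vha16-1 summits lay nearer to Trap1 (148 and 164 bp) than to Vha16-1 (409 and 393 bp). The gap of eIF3l is shared with Nrx-IV, a septate junction gene used as a glia marker. Cytoplasmic ribosomal protein genes had 1 of 79 (1.27%, interval 0.03 to 6.85%), RpL35A, with 17 and 26 fragments. The RpL35A summits lay nearer to PEK (225 and 148 bp) than to RpL35A (652 and 729 bp). Proteasome genes had 0 of 37, which allows up to 8.11%. Nucleoporin genes had 1 of 22, Nup133 (40 and 80 fragments), and insulator protein genes had 1 of 17, CTCF.

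Smaller shares of receptor and cuticle genes border a short gap. Of 119 olfactory and gustatory receptor genes 60.5% border a short gap, against 70.0% of all coding genes, and 1 of these 72 (1.39%, interval 0.04 to 7.50%) had a summit in both replicates, Gr64a with 55 and 53 fragments. The Gr64a summits lay nearer to CG11594 (266 and 200 bp) than to Gr64a (492 and 558 bp). Cuticular protein genes had 0 of 44, which allows up to 6.82%. Neuron markers had 0 of 7, glia markers 1 of 7 and muscle markers 0 of 6, numbers too small to read a share from. Over all 17 lists 25 of 674 genes (3.71%, interval 2.41 to 5.43%) were reached in both replicates, against 3.11% of all genes at short gaps.

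Among arms, short gaps with a summit in both replicates made up 1.75% on 2L (23 of 1314), 2.45% on 2R (34 of 1386), 2.41% on 3L (32 of 1327), 2.35% on 3R (41 of 1741) and 1.82% on X (19 of 1045), with overlapping intervals. Chromosome 4 has only 21 short gaps, of which 0 had such a summit, which allows a share of up to 14.3%. Non-coding genes were no common feature. Of the short-gap summits 3.45% in replicate 1 and 3.91% in replicate 2 lay in the span of an annotated non-coding gene, and such spans cover 3.35% of the short-gap bases.

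Summits found in short gaps of 1 replicate were lower. The 83 of replicate 1 had a median of 45 fragments (range 14 to 274) and the 132 of replicate 2 had 35 fragments (range 11 to 184). In the gaps with a summit in both replicates the medians were 69 and 72. For 29 of the 83 and 15 of the 132, a summit of the other replicate lay within 500 bp inside a gene, so that a gene boundary lay between them. At bsk, the JNK gene, the summit of replicate 2 in the gap shared with CG31717 had 184 fragments, and that of replicate 1, 20 bp away inside CG31717, had 192. The remaining 54 and 117 had none within 500 bp. They included some of the highest summits. The gap between CG3735 and Taldo, the transaldolase gene, had 274 fragments in replicate 1, where the nearest summit of replicate 2 was 3079 bp away. That between the splicing regulator gene tra2 and CG12868 had 259 fragments with the nearest one 23818 bp away, and that between Mical, an actin oxidase gene, and CG3909 had 257 with the nearest one 11278 bp away. In replicate 2, the gap between ocm and cN-IIIB had 184 fragments and the nearest summit of replicate 1 was 8045 bp away. At l(3)mbt, in the gap shared with CG5934, it was 536 bp away inside l(3)mbt with 171 fragments. Where a replicate has no summit, none was called there, which does not show that no methylation occurred.

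Close to the limit of 1000 bp, the longest short gaps with a summit in both replicates were that of CG32095 and CycA (986 bp), that of Tina-1 and CG15861 (978 bp, 125 and 131 fragments) and that between Bet3 with Nf-YA and Srg3 (964 bp, 69 and 70). Just beyond it came the gaps between Tektin-C and the kinase gene S6k (1005 bp, 39 and 35 fragments), Rgk1 and CG11961 (1006 bp, 29 and 51), and CG13653 and Cad96Ca (1039 bp, 22 and 39, 810 bp apart).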

How the data were processed

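Genomic DNA was cut with DpnI at methylated GATC, amplified by PCR and sequenced on a MiSeq, per the labels' protocols. The tools named are MACS 1.4.2, Bowtie2 2.2.6 and bcl2fastq 2.19.0.316, and the build is dm6, per the submitters' processing notes. Each sample has its own deposited list of summit positions, and the signal beside each is the height given by the authors, in fragments and not scaled to depth. The control, cutoffs and duplicate filter are not given in the sources used here. PCR copies are not independent molecules.

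Coding gene spans came from RefSeq (Release 6 plus ISO1 MT, the assembly of dm6). Overlapping spans were merged and each summit was placed inside genes, in a gap of at most 1000 bp, in a longer gap or outside the outermost genes. The 61 summits off the 6 arms were left out. The labels give no replicate numbers, and 1 and 2 follow accession order. Summits within 500 bp were called paired. Percentiles refer to the whole list. Lists held 844 genes. No tests were run.

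Gene strand, promoters and sequence were not used here, so the planned comparisons by strand class, of position in tandem gaps and of promoter motifs were not run, and the planned 8 leading gaps per strand class became 24 over all short gaps. Named gaps are these 24, those beside Cdk1, ebd1, Set8, arm, InR, E2f1, CycE or grh, those with a summit in both replicates beside cell cycle, DNA damage, Wnt, quiescence or chromatin genes, the 3 highest of each replicate alone, and 3 on either side of 1000 bp. A rule for the gap with most summits chose none, as 149 gaps tied. Other gaps of listed genes and the extremes were named after their values were seen. The members and lists were chosen with earlier results of these data known. Alternatives were gap limits of 500 and 2000 bp, spans of all annotated genes, summits at or above the median height, pairing at 200 and 1000 bp, replicates left out, and summits near gene ends or weighted by height. The functions, tested on simulated data, ran under Python 3.11.15 with pandas 2.3.3, matplotlib 3.10.9, SciPy 1.17.1 and numpy 2.4.6.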

Additional observations from a re-analysis of the deposited data

How the results depend on the processing

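The number of short gaps with a summit in both replicates stayed within 1.5 times its value of 149 for gap limits of 500 and 2000 bp (101 and 184), spans of all annotated genes (157), summits at or above the median height (108) and pairs within 200 bp (146). With 1 replicate alone it was 232 to 281. The share of listed genes was then 5.79 to 6.68% in place of 3.71%, against 4.79 to 5.83% of all genes at short gaps in place of 3.11%. If a summit of any replicate counted, it was 8.75% of listed genes, against 7.50% of all genes at short gaps. Summits at or above the median height left 154 and 185 members in replicates 1 and 2, or 10.6% and 8.69% of such summits. The share of summits in short gaps was 5.78% and 4.60% for a limit of 500 bp and 10.2% and 8.56% for 2000 bp. With pairing at 1000 bp the paired share was 64.8% for short-gap summits of replicate 2, against 53.6% inside genes and 47.1% in longer gaps. For replicate 1 it was 78.9%, against 73.1% inside genes and 70.9% in longer gaps. Among summits within 500 bp of a gene end, paired shares in replicates 1 and 2 were 72.8% and 58.7% inside genes, and 69.8% and 51.7% in longer gaps. Weighted to short-gap heights they were 72.0% and 55.1% inside genes and 72.0% and 57.5% in longer gaps. The ratio of median heights, short gaps to inside genes, was 1.17 and 1.19 above the median height, 1.28 and 1.30 in percentiles and 1.14 and 1.10 near gene ends. Short gaps to longer gaps it was 1.29 and 1.27 above the median height and 1.26 and 1.41 near gene ends. The near-end and weighted values were chosen after seeing the data. Near gene ends the order of paired shares in replicate 2 turned round, with 58.4% in short gaps against 58.7% inside genes, and the intervals overlap. The near-end and above-median settings leave fewer summits, and the cause of these shifts was not tested. The comparisons by strand class, in tandem gaps and of promoter motifs were not run. No paired analysis was possible because summit lists of 1 group were analysed and the labels carry no replicate numbers. Depth is unknown, and with 149 gaps shares of lists under 50 genes have intervals of many percentage points.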
